A study of Mus musculus with 2 samples.

Results

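The alpha and beta tubulin isotypes of newborn mouse forebrain are described here through 10 genes, given by name: the alpha tubulin genes Tuba1a, Tuba1b, Tuba1c and Tuba4a and the beta tubulin genes Tubb2a, Tubb2b, Tubb3, Tubb4b, Tubb5 and Tubb6. They were found by symbol among the 55536 genes listed in the deposited tables, and all 10 had a match. Polyadenylated RNA was sequenced from 2 newborn B6NCrl mice aged 0 days, named pup 1 and pup 3 in the labels, with 10 ng of RNA from 1 whole forebrain each. Both pups were untreated as far as the labels say, no allele is named, and sex was not collected. The labels give the pups 1 shared donor identifier, and do not say how the animals are related. With 1 group of 2 libraries there was no test between conditions, and every difference below is given by its size, with SDs over n = 2 pups.

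Microtubules are hollow polymers of tubulin dimers, each of 1 alpha and 1 beta chain. Mammals carry several genes for each chain, called isotypes, whose products are nearly alike in the folded core and differ mostly in the short acidic tail at the carboxyl end. In the developing forebrain microtubules build the mitotic spindle of dividing progenitors, carry the nucleus forward in migrating neurons and fill growing axons and dendrites. Mutations in TUBA1A, TUBB2B, TUBB3 and TUBB5 (TUBB in human) cause malformations of the human cortex. Cells also tune tubulin messenger RNA to the pool of free dimers: the factor TTC5 binds the first residues of the nascent chain at the ribosome and starts decay of the message.

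Since autoregulation reads the start of the coding sequence, this start is printed for 9 members from the GENCODE M21 transcripts (build mm10). The opening 24 coding bases are shown, with the first 12 bases, which encode the residues read during autoregulation, in capitals. In the 4 alpha genes the first 3 bases lie in exon 1 and the rest in exon 2, and in the 5 beta genes shown all 24 lie in exon 1.
Tuba1a: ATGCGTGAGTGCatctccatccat
Tuba1b: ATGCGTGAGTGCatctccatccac
Tuba1c: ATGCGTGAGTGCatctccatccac
Tuba4a: ATGCGCGAGTGCatttcagtccat
Tubb2a: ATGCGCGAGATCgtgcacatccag
Tubb2b: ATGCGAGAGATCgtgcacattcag
Tubb3: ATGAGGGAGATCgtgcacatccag
Tubb4b: ATGAGGGAGATCgtgcacctgcag
Tubb5: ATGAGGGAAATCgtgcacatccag

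The other end of the coding sequence holds the tail. The last 75 coding bases, stop codon included, are shown for 5 beta genes, with capitals for each base that aligned to a different base or to a gap in Tubb2a. All of them lie in exon 4 of 4, at chr13:34074468-34074542 (minus strand) for Tubb2a, chr13:34127471-34127545 (minus strand) for Tubb2b, chr8:123421608-123421682 (plus strand) for Tubb3, chr2:25222308-25222382 (minus strand) for Tubb4b and chr17:35834982-35835056 (minus strand) for Tubb5.
Tubb2a: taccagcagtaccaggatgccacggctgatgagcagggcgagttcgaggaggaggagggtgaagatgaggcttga
Tubb2b: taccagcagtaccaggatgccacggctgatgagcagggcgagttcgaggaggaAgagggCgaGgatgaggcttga
Tubb3: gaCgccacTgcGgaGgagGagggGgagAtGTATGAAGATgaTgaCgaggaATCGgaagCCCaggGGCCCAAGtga
Tubb4b: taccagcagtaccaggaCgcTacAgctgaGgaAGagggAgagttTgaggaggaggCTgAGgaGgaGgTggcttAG
Tubb5: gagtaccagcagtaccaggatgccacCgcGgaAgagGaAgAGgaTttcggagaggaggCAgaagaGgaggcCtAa

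Tubb2b differed from Tubb2a at 3 of these bases, Tubb5 at 13, Tubb4b at 17 and Tubb3 at 34. These counts cover printed bases only, so Tubb2a bases that are missing from the other gene do not enter them. The whole coding sequence has 1335 bases in Tubb5 and 1338 in Tubb2a. The pair Tubb2a and Tubb2b was thus nearly one sequence at this end, and Tubb3, the isotype known for its presence in neurons, was the most different of the 5.

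Expected counts summed to 40964891 for pup 1 and 41230878 for pup 3, where an expected count is the estimated number of reads per gene after reads that fit several genes are split. TPM, a transcript abundance that divides counts by transcript length and scales each library to the same total, was used to compare levels between genes. The forebrain label was checked on markers: 6 of 6 forebrain genes reached 1 TPM in each pup, against 0 of 6 for midbrain and hindbrain, whose summed level was 0.20 TPM in pup 1 and 0.10 TPM in pup 3. Whole forebrain holds many cell types, so fewer cells of a type and less RNA per cell cannot be told apart.

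Tuba1a, the main alpha tubulin of young neurons, led all members and all 22028 protein-coding genes listed. Its level was 15086 TPM in pup 1 against 18509 TPM in pup 3 (16797 ± 2421 TPM). Its reads made up 1.64% of the pup 1 library (Wilson 95% bounds 1.63 and 1.64) and 2.25% of the pup 3 library (bounds 2.25 and 2.26). Pup 3 was the higher, with a TPM ratio of 1.23. These intervals cover counting error within a library only. The tables hold no molecular identifiers, so reads copied from the same molecule are counted as separate.

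Tuba1b, an alpha tubulin found in most dividing and non-dividing cells, ranked 81st among protein-coding genes. It had 1045 TPM in pup 1 against 1067 TPM in pup 3 (1056 ± 15.4 TPM), nearly the same in both. Tuba1a and Tuba1b are neighbours on the minus strand of chromosome 15, at 98949837 to 98953703 and 98931425 to 98934565, with 15271 bases between them. The ratio of Tuba1a to Tuba1b was 14.4 in pup 1 and 17.4 in pup 3 in TPM. The wider ratio in pup 3 followed the higher Tuba1a value there.

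The other alpha genes were far lower. Tuba4a (chromosome 1, 75214228 to 75219865, minus strand), an alpha isotype of many tissues, had 72.0 TPM in pup 1 against 61.2 TPM in pup 3 (66.6 ± 7.63 TPM). Tuba1c (chromosome 15, 99029891 to 99038110, plus strand), the third member of the chromosome 15 group, had 13.6 TPM in pup 1 against 14.9 TPM in pup 3 (14.2 ± 0.955 TPM). Both were thus minor members of the alpha class in each pup.

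Among the beta genes, Tubb2a was the highest per length. This isotype (chromosome 13, 34074274 to 34078007, minus strand) is abundant in brain, and had 2957 TPM in pup 1 against 2802 TPM in pup 3 (2879 ± 110 TPM). Tubb2b, 48740 bases away on the same strand (34126748 to 34130466), had 886 TPM in pup 1 against 917 TPM in pup 3 (901 ± 21.8 TPM). The ratio of Tubb2a to Tubb2b was 3.34 in pup 1 and 3.06 in pup 3, so the order of this pair, whose printed tails differ at 3 bases, was the same in both pups.

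Tubb5 and Tubb3 followed at nearly equal levels. Tubb5 (chromosome 17, 35833921 to 35838306, minus strand), a broadly expressed isotype of progenitors and neurons, had 1778 TPM in pup 1 against 1770 TPM in pup 3 (1774 ± 5.23 TPM), the smallest spread among the members at 0.295% of the mean. Tubb3 (chromosome 8, 123411424 to 123422015, plus strand) had 1749 TPM in pup 1 against 1626 TPM in pup 3 (1687 ± 86.8 TPM). The ratio of Tubb5 to Tubb3 was 1.02 in pup 1 and 1.09 in pup 3, the closest neighbours in the order whose values over the pups did not overlap.

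Tubb4b (chromosome 2, 25222160 to 25224702, minus strand), a widely expressed isotype also used in cilia, had 387 TPM in pup 1 against 304 TPM in pup 3 (346 ± 59.0 TPM). Its SD of 17.1% of the mean was the widest among the members. Tubb6 (chromosome 18, 67390717 to 67402749, plus strand), a beta tubulin better known from tissues outside the brain, was the lowest, with 12.7 TPM in pup 1 against 14.3 TPM in pup 3 (13.5 ± 1.14 TPM).

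By mean TPM the members ran in the order Tuba1a, Tubb2a, Tubb5, Tubb3, Tuba1b, Tubb2b, Tubb4b, Tuba4a, Tuba1c, Tubb6. The values of neighbours overlapped over the pups for Tuba1c and Tubb6 only, although Tuba1c was above Tubb6 within each pup. With the M4 annotation release, Tubb2b (mean 1122 TPM) was above Tuba1b (1074 TPM), so the order of these 2 genes depended on the annotation. The step from Tuba1a to Tubb2a was 5.83-fold, and that from Tubb4b to Tuba4a was 5.19-fold. Tuba1a thus stood alone at the top, and Tuba4a, Tuba1c and Tubb6 lay below 100 TPM. When protein-coding genes were ranked by mean TPM, 5 of the 10 members came within the first 100.

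**Figure D1:**
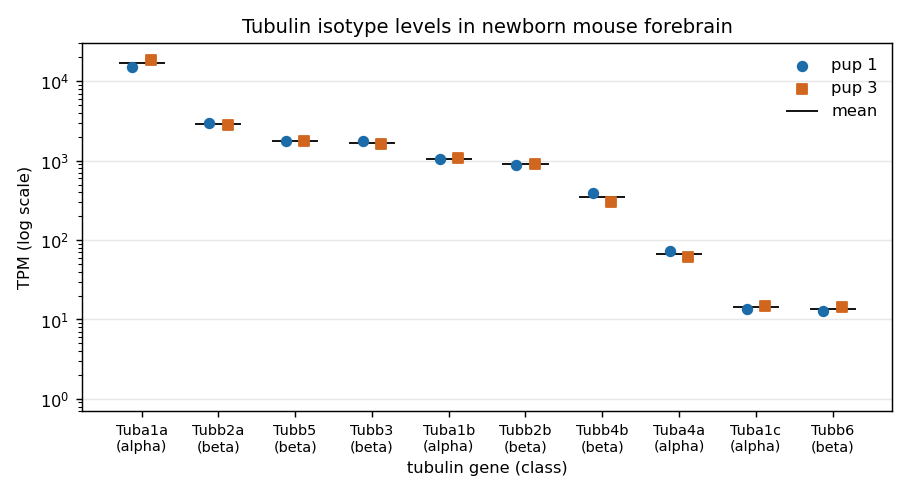
TPM on a log scale for the 10 tubulin genes, ordered by mean, with a circle for pup 1, a square for pup 3 and a line for the mean. Tuba1a sits alone at 16797 TPM, and the lowest genes, Tuba1c and Tubb6, lie at 14.2 and 13.5 TPM with overlapping values.

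The share of each isotype was taken within its class and library, over the summed TPM of the 4 alpha or the 6 beta members. Alpha tubulin was dominated by 1 gene: Tuba1a held 93.0% in pup 1 and 94.2% in pup 3 (93.6 ± 0.817%). Tuba1b held 6.44% in pup 1 and 5.43% in pup 3 (5.94 ± 0.718%). Tuba4a held 0.444% and 0.311%, and Tuba1c 0.0837% and 0.0759%, in pup 1 and pup 3. The shares of the 3 lesser genes were all lower in pup 3, where Tuba1a was higher, and shares of 1 total cannot move independently.

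Beta tubulin was spread over several genes. Tubb2a held 38.1% in pup 1 and 37.7% in pup 3 (37.9 ± 0.261%), Tubb5 22.9% and 23.8% (23.3 ± 0.662%), and Tubb3 22.5% and 21.9% (22.2 ± 0.447%). Tubb2b held 11.4% and 12.3% (11.9 ± 0.658%), Tubb4b 4.99% and 4.09% (4.54 ± 0.634%), and Tubb6 0.163% and 0.192% (0.177 ± 0.0205%). No beta gene reached 50% of its class in either pup, in contrast to Tuba1a.

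The leading beta gene depended on the scale. By expected counts, which are not divided by length, Tubb5 held 31.0% of pup 1 beta tubulin reads (Wilson 95% bounds 30.8 and 31.1) and 32.1% of those of pup 3 (bounds 31.9 and 32.2). Tubb2a held 30.8% (bounds 30.7 and 31.0) and 30.3% (bounds 30.2 and 30.4) on the same scale. The Tubb5 transcript has 2649 bases with a 3' untranslated region of 1061 bases, against 1610 and 194 bases for Tubb2a, so equal reads give Tubb5 fewer transcripts. Tuba1a held 93.3% of alpha tubulin reads in pup 1 and 94.4% in pup 3 by counts, close to its share by TPM.

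**Figure D2:**
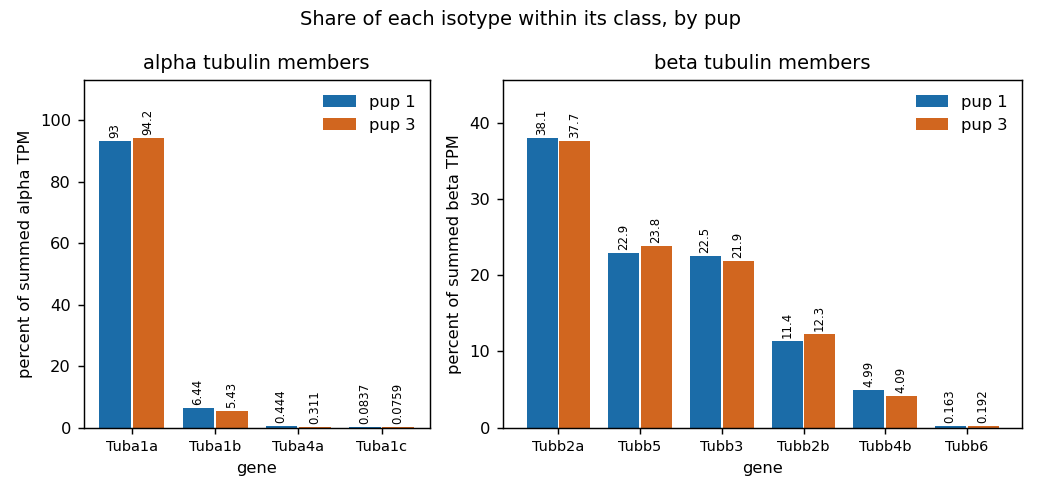
Percent of summed alpha TPM (left) or beta TPM (right) held by each gene in pup 1 and pup 3, with the value above each bar. Tuba1a holds 93.0% and 94.2% of alpha tubulin, while the beta class is led by Tubb2a at 38.1% and 37.7% and shared with Tubb5, Tubb3 and Tubb2b.

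Although the protein dimer holds equal numbers of each chain, the messages were not equal. Summed alpha TPM was 16216 in pup 1 and 19652 in pup 3 (17934 ± 2429), and summed beta TPM was 7769 and 7433 (7601 ± 238). Alpha exceeded beta 2.09-fold in pup 1 and 2.64-fold in pup 3 (2.37 ± 0.394), and 1.90-fold and 2.39-fold by expected counts. The excess rested on 1 gene: without Tuba1a, alpha was 0.145 of beta in pup 1 and 0.154 in pup 3. The remaining alpha genes summed to 1130 TPM in pup 1 and 1143 TPM in pup 3, a much smaller spread than that of Tuba1a.

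Most genes were lower in pup 3 on the TPM scale. The median log2 ratio of pup 3 to pup 1, of TPM + 1, was -0.24 over the 15463 genes whose mean reached 1 TPM, and 20.2% of them were higher in pup 3. Among the members 5 of 10 were higher in pup 3, namely Tuba1a (0.30), Tubb6 (0.16), Tuba1c (0.13), Tubb2b (0.05) and Tuba1b (0.03). The 5 others were Tubb5 (-0.01), Tubb2a (-0.08), Tubb3 (-0.10), Tuba4a (-0.23) and Tubb4b (-0.35). Relative to the all-gene median 9 of 10 members were above 0, where 50% of all genes are by construction, and their median was 0.25 above it. That median fell to 0.14 when every gene with a count set the reference.

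The members' place depended on which genes they were set beside. Against protein-coding genes within 500 bases of each member's length, 8 of 10 members were above the median, and the median over the members was 0.23. The 1769 genes whose mean reached 100 TPM had a median ratio of -0.02, so abundant genes as a whole were higher against the all-gene median. Of the 7 members this abundant, 4 were above that median, and against it the median over all 10 members was 0.03. Tuba1a stood at percentile 90.0 of those genes and Tubb4b at percentile 10.3, with the other 5 between 35.0 and 60.8. These 5 thus lay near the middle of genes whose mean reached 100 TPM. They ranked from 19th (Tubb2a) to 103rd (Tubb2b) among protein-coding genes, so a closer match in abundance was not examined.

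No member was over 2-fold apart between the pups, against 2.5% of the 11477 genes that reached 5 TPM in either pup and 0.509% of those whose mean reached 100 TPM. Scaling changed the sign of small differences. With TMM scaling of the counts, which moved the all-gene median to 0.01, 9 of 10 members were higher in pup 3 against 51.3% of all genes, and Tubb2a, Tubb3, Tubb5 and Tuba4a turned from lower to higher. DESeq2 size factors gave 9 as well. Tuba1a stayed higher in pup 3 (0.59 with TMM) and Tubb4b lower (-0.06 with TMM) in both.

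Markers of cell types moved between the pups too. Most genes, 79.6% of those whose mean reached 1 TPM, were lower in pup 3, and so were all 7 neuronal markers, such as Snap25 and Syt1, whose summed TPM was 863 in pup 1 and 582 in pup 3 (ratio 0.675). The sums of other nervous system lists were lower in pup 3 as well, with ratios of 0.705 for the 4 astrocyte markers, 0.702 for the 3 markers of ependyma and cilia, 0.808 for the 5 of radial glia and 0.853 for the 5 of the oligodendrocyte lineage. Tubb3, although known as a neuronal isotype, had a ratio of 0.930, Tuba1a one of 1.23, and Tubb4b, the isotype also used in cilia, one of 0.785. Lists of other cells had higher sums in pup 3, with ratios of 1.47 for blood and platelets (1081 and 1591 TPM) and 1.12 for fibroblasts and meninges. The ratios were 1.10 for microglia, and 1.04 for both endothelium and dividing cells. All 3 blood and platelet markers were higher in pup 3, but only 1 of 3 for fibroblasts and meninges. For microglia and endothelium 2 of 3 were higher, and for dividing cells 2 of 4, so these sums do not speak for every marker. The part of any cell type in the tubulin differences was not tested.

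**Figure D3:**
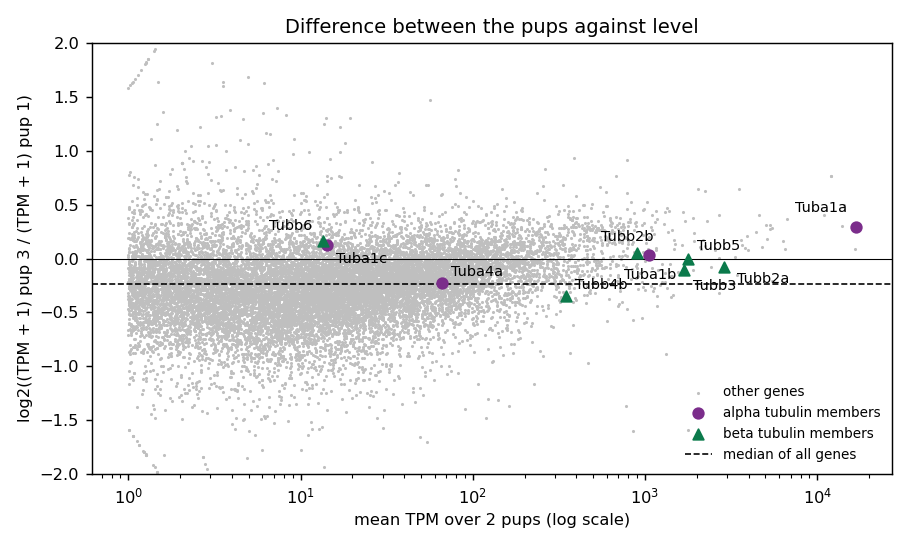
Log2 ratio of TPM + 1 in pup 3 over pup 1 against mean TPM (log scale) for 15393 other genes (grey, with 60 beyond the axis limit of 2), alpha members (circles) and beta members (triangles), with a dashed line at the all-gene median of -0.24. Tuba1a at 0.30 and Tubb4b at -0.35 are the members farthest from 0, and abundant genes lie higher than the rest.

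The isotypes are so alike that how reads were placed bears on every level. Over the coding sequence Tuba1a and Tuba1b were 98.3% identical (1333 of 1356 aligned bases), Tuba1b and Tuba1c 97.9%, and Tuba1a and Tuba1c 97.1%, with an identical run of up to 468 bases in the Tuba1b and Tuba1c pair. Tuba4a was 84.7% to 85.2% identical to these 3, with no identical run over 29 bases. Tubb2a and Tubb2b were 96.5% identical with a run of 551 bases, while every other pair of beta members was 80.2% to 85.9% identical with no run over 50 bases. Long identical stretches were thus found within 2 sets, Tuba1a with Tuba1b and Tuba1c, and Tubb2a with Tubb2b.

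Counting every window of 100 bases in each leading transcript showed how much of it occurs in another gene. In the coding part, 81.5% of windows of Tuba1a, 90.9% of Tuba1b and 80.4% of Tuba1c were shared, against 45.0% of Tubb2a, 46.7% of Tubb2b and 35.3% of Tubb4b. The main partner of Tubb4b was the pseudogene Tubb4b-ps1, with 411 windows. Tubb4b also shared 44.9% of its 3' untranslated windows, or 22. That is the number shared with Fam166a, a gene that overlaps Tubb4b on the other strand. Tuba1b shared 51.7% of its 3' untranslated windows. Tubb3, Tubb5 and Tubb6 shared no window of this length, so their reads of 100 bases point to 1 gene. Tuba4a shared none in its coding part but 97.3% of its 3' untranslated windows, all with Stk16, a kinase gene that overlaps it on the other strand. Stk16 itself had 84.2 TPM in pup 1 against 76.0 TPM in pup 3. Strand use in library making or counting is not given in the sources used here. Expected counts were not whole for either gene in pup 1 (3279.02 for Tuba4a and 2186.98 for Stk16) or pup 3 (3085.23 and 2245.77). Reads that fit both were thus split between them by estimate, and which gene each such read came from is not known.

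The deposited tables give the error of the read assignment as a posterior SD of each count. It was largest for Tuba1c, at 4.47% of 667 reads in pup 1 and 3.95% of 826 reads in pup 3. For Tuba1b it was 0.295% and 0.292%, for Tubb2b 0.288% and 0.257%, and for Tuba1a 0.0194% and 0.0155%. For Tuba4a it was 0.287% and 0.325%, or 9.41 and 10.04 reads, the same numbers of reads as listed for Stk16. It was listed as 0 for Tubb3, Tubb5 and Tubb6, the members with no shared window. The posterior SD was thus smaller than the spread between the pups for Tuba1a (14.4% of the mean), Tuba1b (1.46%) and Tubb2b (2.42%), and closer to it for Tuba1c (6.70%). It does not cover the choice of annotation. With the M4 release the mean of Tubb2b went from 901 to 1122 TPM and that of Tuba1a from 16797 to 19430 TPM.

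**Figure D4:**
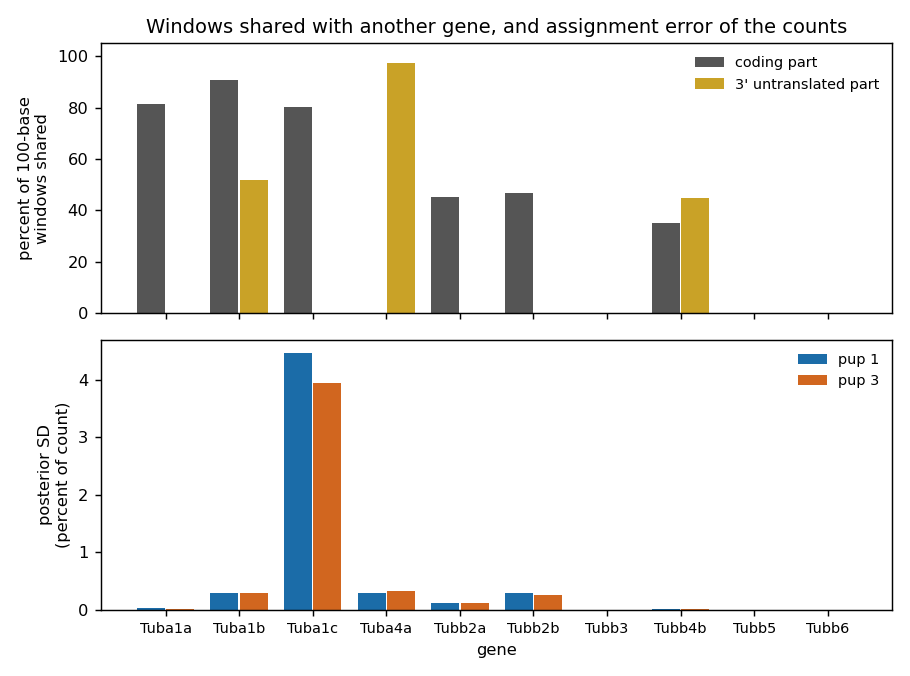
Top, percent of 100-base windows of each leading transcript found in another gene, for the coding part and the 3' untranslated part. Bottom, posterior SD of the count as percent of the count in pup 1 and pup 3. Tuba1b has the highest coding share at 90.9%, Tuba1c the largest posterior SD at 4.47%, and Tubb3, Tubb5 and Tubb6 have no shared window and a posterior SD of 0.

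Processed pseudogenes, copies of tubulin messages put back into the genome, were small beside the class sums. The 12 pseudogenes sharing a window with a member, 8 of alpha and 4 of beta genes, summed to 58.6 TPM in pup 1 and 71.4 TPM in pup 3. Those of alpha genes came to 0.348% and 0.353% of the summed TPM of the alpha members, and those of beta genes to 0.0264% and 0.0280% of that of the beta members. They were not small beside every member: Tuba1c held 0.0837% and 0.0759% of alpha TPM, less than the alpha pseudogenes. Gm49450, annotated across Tuba1b and Tuba1a, and Gm20388, which overlaps Tubb3, were both listed at 0 in the 2 pups.

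The isotypes were read mostly from 1 transcript each. In 10 of 10 members the same transcript led in both pups, and in 9 it held over 97% of the gene's TPM in each. For 2 of these, Tuba1a and Tubb2a, only 1 transcript is listed, so both outcomes were fixed in advance. Each leading transcript has 4 exons. Transcripts of Tubb5 without a coding label held 1.16% of its TPM in pup 1 and 0.99% in pup 3.

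Tuba4a was the exception, with 8 annotated transcripts, 5 of which were above 0 in both pups. Tuba4a-201 held 54.8% of its TPM in pup 1 and 49.7% in pup 3, Tuba4a-206 22.6% and 27.5%, and Tuba4a-202 12.5% and 12.8%. Tuba4a-205, annotated as a retained intron, held 5% and 4.85%. The annotated coding part of Tuba4a-201 has no start codon, and the coding start printed above comes from Tuba4a-202. With the leading transcript alone in place of the gene, Tuba4a had 0.200% of alpha TPM in place of 0.378%.

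**Figure D5:**
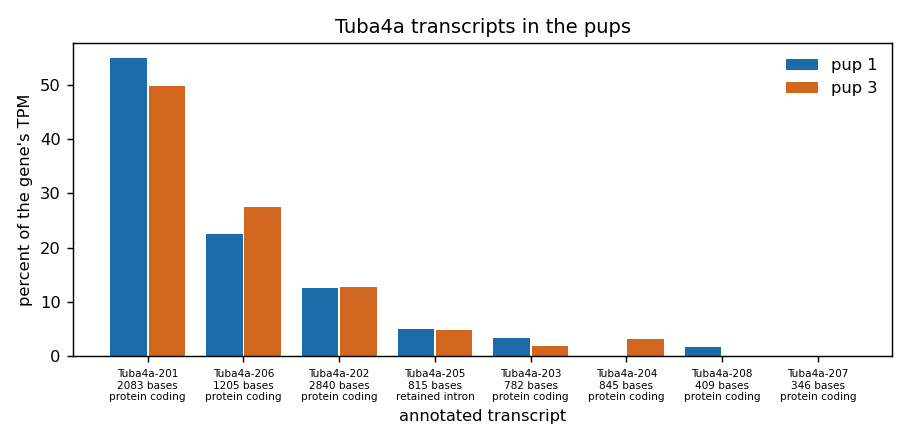
Percent of Tuba4a TPM held by each of its 8 annotated transcripts in pup 1 and pup 3, with transcript length and annotation label under each. Tuba4a-201 leads in both pups at 54.8% and 49.7%, followed by Tuba4a-206 and Tuba4a-202.

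Genes that work with tubulin were read from 8 lists of 80 genes, of which 73 reached 1 TPM in both. Among these 73, 10 were higher in pup 3, a smaller share than the 20.2% of all genes. The all-gene median was exceeded by 37, close to the 50% of all genes above it by construction. Only 1 was over 2-fold apart, against 2.5% of the genes that reached 5 TPM in either pup. Of the 6 other alpha and beta tubulin genes only Tubb4a, a beta tubulin of myelinating cells and adult brain, was detected. Tubb4a (chromosome 17, 57080066 to 57087782, minus strand) had 374 TPM in pup 1 against 398 TPM in pup 3 (386 ± 16.5 TPM). It was below Tubb4b in pup 1, with a ratio of 0.967, and above it in pup 3, with a ratio of 1.31, so the order of these 2 genes was not settled. With Tubb4a in the class, Tubb2a held 36.0% of beta TPM. Tuba8 reached 0.99 and 0.86 TPM, and Tuba3b was listed at 0.

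New tubulin chains need help to fold and pair. All 15 genes of the CCT chaperonin and the tubulin cofactors were detected, with a median of 293 TPM, and 13 of them were above the all-gene median difference, where 50% of all genes are. Of the 10 with a mean of at least 100 TPM, 5 were above the median of genes that abundant. The highest were Cct6a (504 ± 6.36 TPM), Cct7 (458 ± 3.36 TPM), both chaperonin subunits, and Tbcb (418 ± 36.4 TPM), a cofactor that acts on alpha tubulin. The summed TPM of all 15 genes was 3738 in pup 1 and 3766 in pup 3, while summed alpha tubulin differed 1.21-fold. Ttc5, the autoregulation factor that reads the opening codons printed above, was at 78.4 ± 6.52 TPM, and its partner Scaper at 23.7 ± 5.10 TPM.

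Enzymes that modify tubulin were mostly low. Of 20 genes 18 were detected in both pups, with a median of 19.5 TPM. The highest were Atat1, which acetylates alpha tubulin (304 ± 13.1 TPM), Svbp, the vasohibin partner in removing the final tyrosine (212 ± 35.4 TPM), and Sirt2, a deacetylase (85.5 ± 1.54 TPM). The glutamylase gene Ttll6 (0.205 TPM) and the carboxypeptidase gene Agbl2 (0.545 TPM) were below 1 TPM on average.

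Genes that start, bind and cut microtubules completed the picture. Gamma tubulin, the seed of new microtubules, was read from Tubg1 (53.3 ± 2.50 TPM) and Tubg2 (52.6 ± 7.02 TPM), and all 8 genes of its ring complex were detected with a median of 16.7 TPM. All 19 microtubule-associated proteins and stathmins were detected with a median of 152 TPM, led by Stmn1, a tubulin-binding protein (6363 ± 499 TPM), Stmn3 (1486 ± 98.7 TPM) and Map1b, an axonal microtubule-binding protein (1325 ± 559 TPM). Of these 19, 2 were higher in pup 3, against 20.2% of all genes, and their median log2 ratio was -0.37, against -0.24 over all genes. Of the 13 with a mean of at least 100 TPM, 2 were above the median of genes that abundant. The 6 severing genes included the only gene of these 8 lists over 2-fold apart, where 2.5% of all genes are: Fign, which encodes fidgetin and was chosen here after its values were seen, had 9.59 TPM in pup 1 against 2.80 TPM in pup 3.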

How the data were processed

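RNA of 2 single forebrains was sequenced after oligo-dT priming and tagmentation, per the labels. The authors deposited gene and transcript tables for mm10 with annotation releases M21 and M4, per the file headers and accompanying notes. Estimated counts (expected counts) were deposited by the authors per gene and transcript. TPM values were deposited by the authors as point estimates and posterior means with credibility bounds whose level is not stated, and FPKM values were deposited beside them. The percent of a gene's TPM held by every transcript was also deposited by the authors. Which aligner and quantifier ran is not given in the sources used here, and the tables use RSEM's column names. The deposited length exceeds the effective length by 99 bases in 99.99% of features. M21 lists 81881 features, 55536 of them genes.

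M21 gene tables were used, with symbols, biotypes and coordinates from GENCODE M21. The members and lists were chosen with earlier results of these data known. All 10 members were named, and of each list the 3 genes with the highest mean TPM and any under 1 TPM. Detection was set at 1 TPM, and differences were log2 of TPM + 1. Identity came from global alignment (Biopython 1.88), and windows of 100 bases were matched on both strands. Expected counts were rounded for TMM (edgeR 4.0.16) and size factors (DESeq2 1.42.0), used for scaling alone, in R 4.3.3. Tables were handled in Python 3.11.15 with pandas 2.3.3 and scipy 1.17.1. The call of genes over 2-fold apart and the all-gene median ratio were tested on simulated counts with counting noise only. The other computations were not tested in this way. Protein sequences were not used here, and some coding stretches are not reported here. No test and no p-value was possible with 1 group. Alternatives changed the annotation release, unit, denominator, scaling, pseudocount, minimum level and the pup left out.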

Additional observations from a re-analysis of the deposited data

How the results depend on the processing

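No paired analysis was possible because the 2 libraries form 1 group. The Tubb2a share of beta TPM, 37.9%, became 36.9% with the M4 annotation, 30.6% with expected counts, 36.0% with all annotated tubulin genes and pseudogenes in the denominator and 36.0% with Tubb4a added, the last chosen after seeing the data. The ratio of alpha to beta was 0.150 without Tuba1a, also chosen after seeing the data. With the M4 annotation the mean of Tuba1a went from 16797 to 19430 TPM and that of Tubb2b from 901 to 1122 TPM. The Tubb2b share of beta TPM went from 11.9% to 13.8% with it. Members higher in pup 3 went from 5 to 9 with TMM scaling and to 9 with DESeq2 size factors. With TMM, Tuba4a turned to 0.030, Tubb2a to 0.21, Tubb3 to 0.19 and Tubb5 to 0.29 (log2). With DESeq2 size factors they turned to 0.037, 0.22, 0.19 and 0.29 in the same order. With TPM over nuclear protein-coding genes, added after seeing the data, Tubb5 turned to 0.052. These scalings use other totals, and the cause beyond that was not tested. Leaving out each pup gave 93.0% to 94.2% for Tuba1a, 37.7% to 38.1% for Tubb2a and 2.09 to 2.64 for alpha over beta, with 10 members detected each time. The count of members above the reference median ran from 6 to 9, the lowest against genes whose mean reached 100 TPM, added after seeing the data. Depth limits Tuba1c and Tubb6 most, at 542 to 826 reads. With 2 pups an SD is itself poorly known.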
